A study of Homo sapiens with 4 samples.

Results

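The AP-1 and EGR immediate early genes are 10 genes, FOS, FOSB, FOSL1, FOSL2, JUN, JUNB, JUND, EGR1, EGR3 and IER2, read by their NCBI Gene IDs from a table of 18882 genes. They were measured by RNA-Seq in BT-474, an established breast cancer cell line described as luminal B-like, in 2 libraries of control cells (wild-type, replicates 1 and 2) and in 2 libraries made from NRP-1 overexpressing cells, named BT-474 NRP-1 (replicates 2 and 3). NRP-1 (Neuropilin-1) is a cell surface receptor without kinase activity of its own. The BT-474 NRP-1 cells carry a plasmid that expresses NRP-1, were grown under Geneticin and came from isolated colonies, and the sequenced controls are labelled wild-type, so that NRP-1, the plasmid, the selection and the culture cannot be told apart. All cells were kept in RPMI-1640 with FBS, and the sources name neither the density nor the time since the last change of medium. The question was which transcripts differ when NRP-1 is overexpressed.

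Immediate early genes are genes whose transcription starts within minutes of a growth factor, serum or stress signal, without new protein synthesis. AP-1 is a dimer of basic leucine zipper proteins. Fos proteins bind DNA only together with a partner such as a Jun protein, while Jun proteins also pair with each other. EGR1 and EGR3 are zinc finger transcription factors, and IER2 is a small nuclear protein induced with them. In breast epithelial cells these genes are induced by receptor tyrosine kinases such as ERBB2 through the ERK pathway, which acts on SRF and its TCF partners and on CREB at their promoters.

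The promoters of the members that the results turn on are shown because these genes are induced by the same class of signals. The sequences are the 250 bases before the gene start in RefSeq (GRCh38.p14), read 5′ to 3′ on the gene's strand. Capitals mark the letters TGACG of a cAMP response element (or CGTCA on the other strand), the element TATAAA, and the CArG box that SRF binds. The positions are chr2:28392608-28392857 (plus strand) for FOSL2, chr14:75278578-75278827 (plus strand) for FOS, chr5:138465229-138465478 (plus strand) for EGR1 and chr19:12791236-12791485 (plus strand) for JUNB.
FOSL2: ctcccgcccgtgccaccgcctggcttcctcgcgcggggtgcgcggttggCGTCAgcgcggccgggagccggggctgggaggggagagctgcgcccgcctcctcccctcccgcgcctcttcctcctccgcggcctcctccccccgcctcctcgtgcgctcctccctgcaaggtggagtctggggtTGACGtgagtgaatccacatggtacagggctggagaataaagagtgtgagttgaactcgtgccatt
FOS: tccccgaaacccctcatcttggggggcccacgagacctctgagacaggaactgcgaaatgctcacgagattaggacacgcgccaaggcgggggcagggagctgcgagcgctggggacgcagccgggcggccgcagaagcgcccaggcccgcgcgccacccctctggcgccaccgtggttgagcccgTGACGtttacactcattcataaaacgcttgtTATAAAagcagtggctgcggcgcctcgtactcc
EGR1: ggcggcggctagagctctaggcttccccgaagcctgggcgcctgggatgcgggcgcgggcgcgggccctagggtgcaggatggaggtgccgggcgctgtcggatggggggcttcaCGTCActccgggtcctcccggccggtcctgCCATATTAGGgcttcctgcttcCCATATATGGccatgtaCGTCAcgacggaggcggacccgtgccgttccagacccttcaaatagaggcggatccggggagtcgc
JUNB: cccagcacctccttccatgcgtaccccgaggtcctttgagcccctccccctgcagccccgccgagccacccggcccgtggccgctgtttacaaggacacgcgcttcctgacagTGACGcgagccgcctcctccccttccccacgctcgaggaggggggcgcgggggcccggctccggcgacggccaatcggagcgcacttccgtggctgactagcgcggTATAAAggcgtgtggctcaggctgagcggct

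Of the 10 genes, 8 were matched to a RefSeq promoter, all but EGR3 and FOSL1. TGACG or its complement was found in all 8, against 21.7% of 27305 promoters of the same length. The full palindrome TGACGTCA, which contains TGACG on both strands, was found in JUND alone (1.77% of promoters). The CArG box was found in EGR1 alone, at 105 to 96 and at 83 to 74 bases before the start (1.14% of promoters). TATAAA was found in FOS, FOSB and JUNB, from 33 to 25 bases before the start (11.1% of promoters). The AP-1 site TGACTCA was found in 0 of the 8 (4.16% of promoters). Both strands were searched, over these 250 bases alone, so that a CArG box or other site lying farther from the start would be missed. A match describes these letters only.

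The expected counts, which are estimated reads per gene and need not be whole, summed to between 8243595 and 8448926 per library. The overexpressed gene, NRP1, was read 7 and 8 times in control and 103 and 62 times in NRP-1 libraries. The labelled cell type held, with all 9 luminal epithelial markers read in every library, led by ERBB2. Of these, 0 passed in edgeR (3 had an unadjusted p under 0.05, beside 22.9% of all tested genes). GATA3 was called higher in DESeq2, beside 2.78% of all tested genes. Of 6 fibroblast markers, DCN and PDGFRB had no reads and 1 was tested, COL1A1, named after its values were seen. COL1A1 had 1739 and 1740 reads in control and 1513 and 1357 in NRP-1 libraries. COL1A2, COL3A1 and LUM had 6 reads or fewer in each library. The summed level, nearly all COL1A1, was 211.7 to 214.5 CPM in control and 160.2 to 177.9 CPM in NRP-1 libraries. Of 7 immune and endothelial markers, 4 were tested, and the summed level was 44.4 to 46.9 CPM in control and 24.1 to 27.0 CPM in NRP-1 libraries. One marker of that list passed the test in edgeR, where 0.678% of all tested genes were called lower. This was CD68, a lysosomal protein used as a macrophage marker. It had 320 and 281 reads in control against 107 and 89.4 in NRP-1 libraries (log2 fold change -1.67, edgeR adjusted p = 0.0423). Over the alternatives with all 4 libraries its adjusted p ran from 1.33e-06 in DESeq2 to 0.106 in edgeR without a filter. Limma did not call CD68, and its part in the results below was not tested. CD68 held most of the reads of that list in each control library. In the same list VWF, an endothelial marker, went the other way, with 9 and 20 reads in control against 47 and 49 in NRP-1 libraries (log2 fold change 1.66, not called in edgeR), and CDH5 had 1 and 1 reads against 15 and 3. The RNA was taken in bulk, so that fewer cells expressing a gene and less RNA per cell cannot be told apart. No source says whether the libraries came from separate cultures, so p-values measure only the spread between these libraries.

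FOSL2, the Fos family gene with the highest RNA level in control cells, was the member that passed the test in edgeR. It had 3923 and 3574 reads in control replicates 1 and 2, and 851 and 1333 reads in NRP-1 replicates 2 and 3. Both NRP-1 libraries lay far below both controls. Its mean CPM, the count scaled to a common library size after TMM normalization, was 459.1 ± 34.2 in control and 128.3 ± 39.9 in NRP-1 libraries (SD, n = 2 each). This is a log2 fold change of -1.84 with a standard error of 0.23, or 3.58-fold less RNA (adjusted p = 0.0440 over all 14298 tested genes, by the quasi-likelihood test of edgeR after Benjamini and Hochberg). FOSL2 was the only one of the 9 tested members with an adjusted p under 0.05, where 0.678% of all tested genes were lower by this rule. Leaving out NRP-1 replicate 2 gave -1.56 and leaving out NRP-1 replicate 3 gave -2.20. The change was -1.76 without control replicate 1 and -1.91 without control replicate 2. These fits leave a lone library in a group, so the change alone is given. Over the alternatives with all 4 libraries the adjusted p ran from 1.44e-11 in DESeq2 to 0.109 without a filter on low counts, and limma did not call the gene.

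FOS, the founding AP-1 subunit, had 1384 and 1059 reads in control libraries and 1011 and 192 in NRP-1 libraries. NRP-1 replicate 2 lay just below control replicate 2, while NRP-1 replicate 3 stood well below the other libraries. Mean CPM was 149.7 ± 29.4 in control and 70.7 ± 68.1 in NRP-1 libraries (SD, n = 2 each). The log2 fold change of -1.08 had a standard error of 0.67 and did not pass the test (adjusted p = 0.388, edgeR). Leaving out NRP-1 replicate 3 gave -0.33, and leaving out NRP-1 replicate 2 gave -2.74.

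FOSB, a Fos protein that also exists in a shorter form made by splicing, had 386 and 198 reads in control libraries and 181 and 39 in NRP-1 libraries. Its libraries fell in the same order as those of FOS. Its controls differed more from each other than those of any other tested member except EGR3, by 0.97 on the log2 scale. Its change of -1.47 on the log2 scale had a standard error of 0.67 (adjusted p = 0.258, edgeR), and became -0.75 when NRP-1 replicate 3 was left out and -2.97 when the other NRP-1 library was.

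FOSL1, the Fos protein known as FRA1 and found at high level in basal-like breast cancer cells, was barely read in BT-474. It had 3 and 3 reads in control libraries and 1 and 6 in NRP-1 libraries. The exact 95% Poisson intervals of these counts, which cover counting error only, ran from 0.0253 to 5.57 for 1 read and from 0.619 to 8.77 for 3 reads, so that a difference was not detectable at this depth. FOSL1 was the member that did not pass the filter on low counts.

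JUNB, a Jun protein that can restrain the activity of JUN, had 1799 and 1597 reads in control libraries and 1061 and 635 in NRP-1 libraries. Both NRP-1 libraries were below both controls, and replicate 3 was the lower. Mean CPM was 208.0 ± 19.3 in control and 99.7 ± 35.5 in NRP-1 libraries (SD, n = 2 each). The log2 fold change of -1.06 (standard error 0.25) did not pass the test in edgeR (adjusted p = 0.0848), and it passed in DESeq2 (adjusted p = 0.00231), the lowest of the alternatives, which reached 0.169. DESeq2 called FOSL2 and JUNB among the 9 tested members, where it called 3.89% of all tested genes lower. For JUNB the change was -0.74 when NRP-1 replicate 3 was left out and -1.49 when NRP-1 replicate 2 was.

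JUN, a strongly transactivating subunit of AP-1, had 2167 and 2075 reads in control libraries and 2083 and 1082 in NRP-1 libraries. NRP-1 replicate 2 was close to the controls, at 244.9 CPM against 252.5 CPM in control replicate 2, and NRP-1 replicate 3 was at 127.1 CPM. JUN had a log2 fold change of -0.48 with a standard error of 0.29 (adjusted p = 0.382, edgeR), and of -0.08 without NRP-1 replicate 3 but -1.04 when the other NRP-1 library was left out.

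JUND, the Jun protein that is present in resting cells and responds least to serum, had 1061 and 1155 reads in control libraries and 694 and 997 in NRP-1 libraries. Here NRP-1 replicate 2 was the lowest library and NRP-1 replicate 3 lay just under the controls, the reverse of JUN. For JUND the log2 fold change was -0.45 with a standard error of 0.19 (adjusted p = 0.233, edgeR), and it was -0.73 without NRP-1 replicate 3 and -0.22 when NRP-1 replicate 2 was left out.

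EGR1, the zinc finger factor with 2 CArG boxes in the sequence above, had 2564 and 2236 reads in control libraries and 2018 and 819 in NRP-1 libraries. NRP-1 replicate 2 was slightly under the controls and NRP-1 replicate 3 far under them. Mean CPM was 294.0 ± 31.0 in control and 166.7 ± 99.8 in NRP-1 libraries (SD, n = 2 each). The log2 fold change of -0.82 (standard error 0.39) did not pass the test (adjusted p = 0.278, edgeR), and became -0.31 with NRP-1 replicate 3 left out and -1.62 with NRP-1 replicate 2 left out.

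IER2 had 2154 and 1974 reads in control libraries and 1949 and 1155 in NRP-1 libraries. Its order over the libraries was that of JUN, with NRP-1 replicate 3 alone standing apart. IER2 had a log2 fold change of -0.47 with a standard error of 0.25 (adjusted p = 0.319, edgeR), and of -0.14 without NRP-1 replicate 3 but -0.91 when the other NRP-1 library was left out.

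EGR3, a zinc finger relative of EGR1, had 26 and 8 reads in control libraries and 26 and 5 in NRP-1 libraries. The groups overlapped, since 1 library of each group had 26 reads. The exact 95% Poisson interval for 26 reads ran from 17.0 to 38.1 and that for 8 reads from 3.45 to 15.8, so that the controls differed from each other beyond counting error. The log2 fold change of -0.19 had a standard error of 0.86 (adjusted p = 0.918, edgeR), and its sign turned when control replicate 1 (0.89) or NRP-1 replicate 3 (0.55) was left out.

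**Figure D1:**
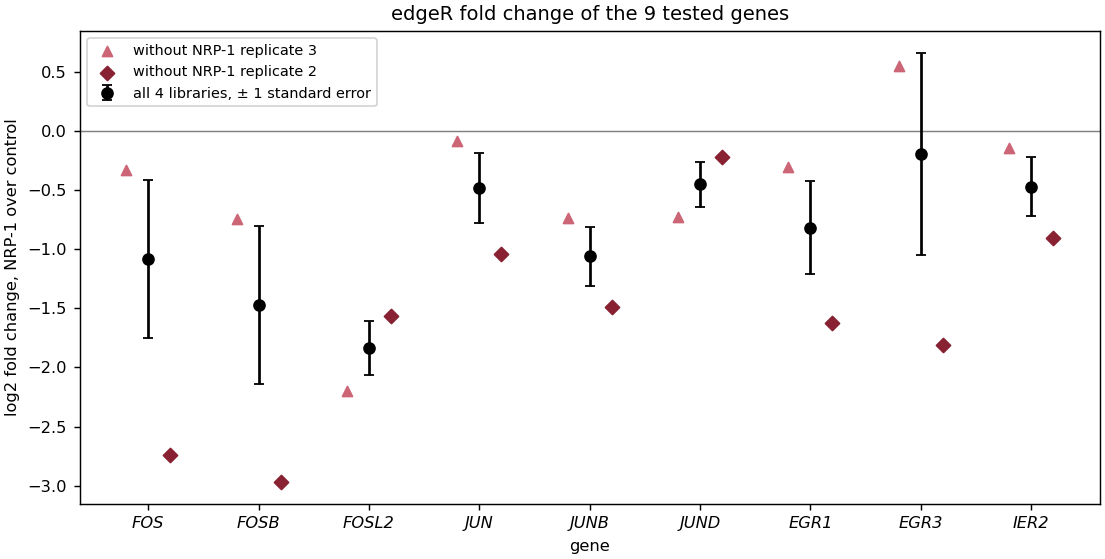
edgeR log2 fold change of BT-474 NRP-1 over control cells (vertical axis) for the 9 tested genes, with ± 1 standard error over all 4 libraries (black), and the value with either NRP-1 library left out (triangles and diamonds). For FOSL2 the 3 values lie between -2.20 and -1.56, while for FOS they run from -0.33 to -2.74.

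The median log2 fold change of the 9 tested members was -0.82, beside 0.02 for all 14298 tested genes, and all 9 estimates were below 0. In 8 of the 9 both NRP-1 libraries lay below both control libraries in CPM, which held for 28.3% of all tested genes, and EGR3 was the exception. The same 8 genes did so with library sizes, with DESeq2 size factors and in the deposited FPKM. The TMM factors ran only from 0.986 to 1.014, so these scalings differ little and their agreement adds little. A stricter rule (adjusted p up to 0.001 and a log2 change of 2 or more in size) left 0 members in edgeR and 0 of all tested genes, while 2 of the 9 tested members, FOSL2 and JUNB, had an unadjusted p under 0.05, beside 22.9% of all tested genes (12.1% lower and 10.8% higher). The count of called members hung on single libraries: it was 0 without control replicate 1 or without control replicate 2, 7 without NRP-1 replicate 2 (all but JUND and EGR3), where 18.3% of all tested genes were called lower, and 6 without NRP-1 replicate 3 (FOS, FOSB, FOSL2, JUNB, JUND and EGR1), where 14.7% were. A single gene in 2 libraries against 2 cannot reach an exact two-sided permutation p below 0.33.

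The NRP-1 libraries differed from each other in these genes. NRP-1 replicate 3 was at least 2-fold below NRP-1 replicate 2 in 4 of the 9 tested members, FOS, FOSB, EGR1 and EGR3, beside 3.04% of all tested genes. The ratio of replicate 3 to replicate 2 in CPM (with 0.5 added) was -2.37 on the log2 scale for FOS, -2.10 for FOSB and -1.30 for EGR1. It was -0.94 for JUN, -0.75 for IER2 and -0.74 for JUNB. FOSL2 and JUND went the other way, at 0.64 and 0.52. Between the control libraries the log2 ratio of replicate 2 to replicate 1 lay between -0.40 and 0.10 for FOS, EGR1, JUN, IER2, JUNB, FOSL2 and JUND, and was -0.97 for FOSB. For EGR3, with few reads, it was -1.33 between the controls and -1.71 between the NRP-1 libraries. With 1 library on each side these ratios carry no test.

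Set against the control mean, NRP-1 replicate 2 was at a log2 ratio of -2.19 for FOSL2, -0.73 for both JUNB and JUND, -0.66 for FOSB, and between -0.32 and -0.08 for FOS, EGR1, IER2 and JUN. NRP-1 replicate 3 was at -2.76 for FOSB, -2.69 for FOS, -1.60 for EGR1, -1.55 for FOSL2, -1.47 for JUNB, -1.03 for JUN, -0.89 for IER2 and -0.21 for JUND. FOSL2 was thus the only member under its control mean by over 1 on the log2 scale in both libraries.

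**Figure D2:**
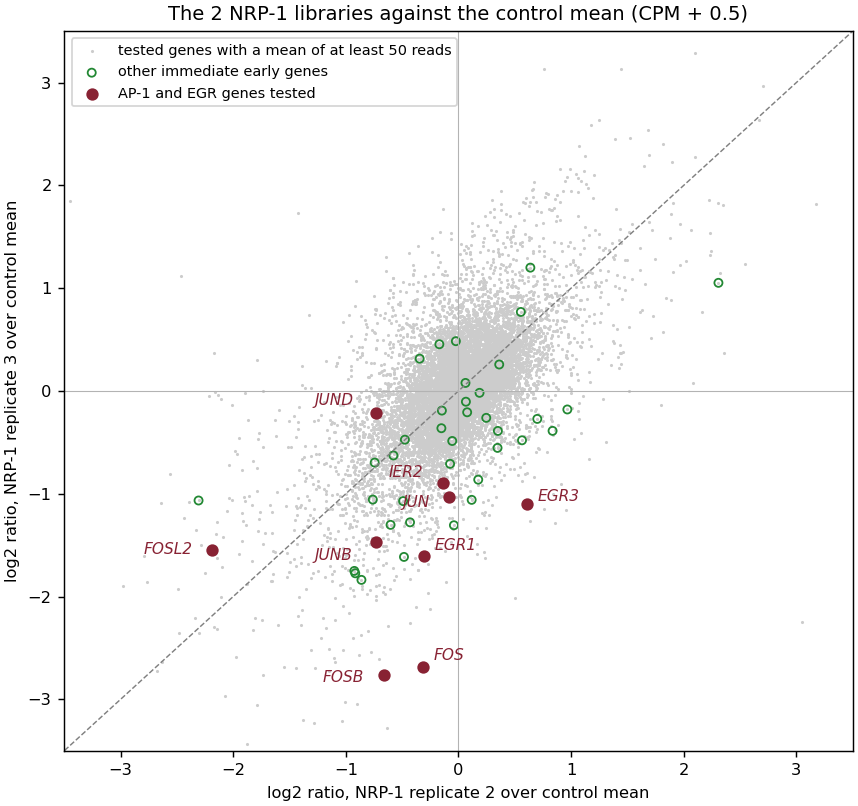
Log2 ratio to the control mean in NRP-1 replicate 2 (horizontal axis) and in NRP-1 replicate 3 (vertical axis) for the 9 tested members (filled), 37 other immediate early genes (open) and 11529 tested genes averaging 50 reads or more (grey, 17 of them outside the axes), in CPM with 0.5 added. On the dashed line both libraries are equal; FOS, FOSB and EGR1 lie well below it, FOSL2 and JUND above it.

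The levels of the members can be compared with each other in FPKM, which is per length of transcript. In control cells IER2 (119.5 FPKM), JUNB (112.4) and FOSL2 (112.0) were highest, and these neighbours overlapped between libraries. EGR1 (92.0 FPKM), JUN (76.3), JUND (71.0) and FOS (68.4) followed, and FOS overlapped both JUN and JUND. Then came FOSB (9.30), EGR3 (0.470) and FOSL1, listed at 0.22 in both. In BT-474 NRP-1 cells FOSL2 stood in place 7, at 32.1 FPKM, and from IER2 (88.5) down to FOSL2 each gene overlapped the next. In rank among all 18882 genes by FPKM, FOSL2 was at percentile 96.8 to 97.2 in the control libraries and 83.3 to 88.9 in the NRP-1 libraries. FOS was at percentile 93.8 to 95.5 in control libraries, 93.2 in NRP-1 replicate 2 and 64.9 in NRP-1 replicate 3.

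The summed level of the 4 Fos family genes was 207.9 and 171.9 FPKM in the control libraries and 86.7 and 51.2 FPKM in the NRP-1 libraries, without overlap. FOSL2 made up 56.6% and 61.9% of this sum in control, 28.9% in NRP-1 replicate 2 and 76.2% in NRP-1 replicate 3. FOS made up 37.4% and 34.4% in control, 64.4% in NRP-1 replicate 2 and 20.6% in NRP-1 replicate 3. The leading Fos transcript was therefore FOSL2 in both controls, FOS in NRP-1 replicate 2 and FOSL2 again in NRP-1 replicate 3. The summed level of the 3 Jun family genes was 266.0 and 253.4 FPKM in control libraries and 187.2 and 142.0 FPKM in NRP-1 libraries. JUNB led in both controls, with 44.9% and 41.5%, JUN led in NRP-1 replicate 2 with 39.5% and JUND in NRP-1 replicate 3 with 44.1%. The ratio of Fos to Jun family FPKM was 0.782 and 0.678 in control libraries and 0.463 and 0.361 in NRP-1 libraries. These sums were not tested.

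The annotation sets the members apart in structure. In GENCODE v29 the transcripts named in the files and found there have 1 exon for JUN, JUNB and JUND, 2 for EGR1, EGR3 and IER2, 4 for FOS, FOSL1 and FOSL2, and 3 and 4 for FOSB.

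The other genes of the pathway came from hand-written lists. None of the 4 EGR and NAB genes besides the members passed the test in edgeR or in DESeq2, and 0 had an unadjusted p under 0.05 in edgeR. Of all tested genes 22.9% had such an unadjusted p, and DESeq2 called 3.89% lower and 2.78% higher. With 4 genes these counts of 0 are not read as a result. EGR2 and EGR4 had under 50 reads on average, and NAB2, a corepressor that binds EGR1, had 148 and 130 reads in control against 167 and 156 in NRP-1 libraries (log2 fold change 0.16, edgeR adjusted p = 0.659). EGR2 had 43 and 16 reads in control and 23 and 8 in NRP-1 libraries, and EGR4 had 20 and 14 against 17 and 1. In both genes NRP-1 replicate 3 was at least 2-fold below NRP-1 replicate 2, beside 3.04% of all tested genes. The median log2 fold change of the list was -0.46.

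Of 12 further basic leucine zipper partners of AP-1, 10 were tested and 0 passed in edgeR. In DESeq2 1 was called lower, ATF3, beside 3.89% of all tested genes. At an unadjusted p under 0.05 in edgeR, 2 were lower and 1 higher, beside 12.1% and 10.8% of all tested genes. ATF3, a stress-induced factor that pairs with Jun proteins, had 344 and 280 reads in control and 85 and 26 in NRP-1 libraries, and a log2 fold change of -2.55 (edgeR adjusted p = 0.0680). The change of ATF3 was -3.65 with NRP-1 replicate 2 left out and -1.93 with NRP-1 replicate 3 left out. Among genes of the list averaging 50 reads or more, BATF had the highest value, with 45 and 62 reads against 83 and 85 (log2 fold change 0.59, edgeR adjusted p = 0.246). The median log2 fold change of the 10 genes was -0.15.

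Among 9 further transcription regulators, 0 of 9 tested passed in edgeR or DESeq2. DESeq2 called 3.89% of all tested genes lower and 2.78% higher. At an unadjusted p under 0.05 in edgeR, 0 were lower and 0 higher, beside 12.1% and 10.8% of all tested genes. The list held SRF itself, its TCF and MRTF partners, CREB1 and MEF2 factors, and its median log2 fold change was 0.13. Among genes averaging 50 reads or more, ELK4, a TCF, was highest, with 268 and 299.9 reads in control and 429 and 352 in NRP-1 libraries. Its log2 fold change was 0.40 with a standard error of 0.16, not called in edgeR. The change of ELK4 was 0.24 with NRP-1 replicate 2 left out and 0.54 with NRP-1 replicate 3 left out. MEF2D was lowest among genes of the list averaging 50 reads or more, with 525 and 617 against 504 and 355 (log2 fold change -0.47, edgeR adjusted p = 0.235). The change of MEF2D was -0.75 with NRP-1 replicate 2 left out and -0.24 with NRP-1 replicate 3 left out.

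Of the 13 tested kinases of the ERK, JNK and p38 cascades, 0 passed in edgeR. In DESeq2 1 was called higher, MAPK10, beside 2.78% of all tested genes. At an unadjusted p under 0.05 in edgeR, 0 were lower and 3 of the 13 higher, beside 12.1% and 10.8% of all tested genes. MAPK10, the JNK3 kinase, had 73 and 61 reads in control and 198 and 133 in NRP-1 libraries (log2 fold change 1.24, edgeR adjusted p = 0.0792, or 0.92 with NRP-1 replicate 2 left out, and called with either NRP-1 library left out). RPS6KA2, an RSK kinase downstream of ERK, had 306 and 381 against 349 and 183 (log2 fold change -0.43, edgeR adjusted p = 0.462). The change of RPS6KA2 was -0.98 with NRP-1 replicate 2 left out and -0.03 with NRP-1 replicate 3 left out. The median of the list was 0.19. These are RNA levels, and kinase activity was not measured in these libraries.

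A list of 38 other immediate early genes gave 37 tested genes, of which 0 passed in edgeR. At an unadjusted p under 0.05 in edgeR, 10 were lower and 3 higher, beside 12.1% and 10.8% of all tested genes. DESeq2 called 5 lower, IER3, ZFP36, MYC, GADD45A and GADD45G, and 1 higher, PLK2, beside 3.89% and 2.78% of all tested genes. The median log2 fold change was -0.17. In 16 of the 37 both NRP-1 libraries lay below both controls and in 4 above them, beside 28.3% and 27.9% of all tested genes. MYC, the growth-promoting transcription factor, had 1113 and 1116 reads in control and 231 and 553 in NRP-1 libraries (log2 fold change -1.57, edgeR adjusted p = 0.0893). The change of MYC was -1.08 with NRP-1 replicate 2 left out and -2.33 with NRP-1 replicate 3 left out. Its lower library was NRP-1 replicate 2, as for FOSL2. PLK2, a serum-inducible kinase, had 277 and 346 reads against 1614 and 674 (log2 fold change 1.82, edgeR adjusted p = 0.0801). The change of PLK2 was 1.04 with NRP-1 replicate 2 left out and 2.32 with NRP-1 replicate 3 left out. NRP-1 replicate 3 was below replicate 2 in 28 of the 37 genes, with a median log2 ratio of -0.51 beside -0.002 for all tested genes. It was at least 2-fold below in 8 of them, beside 3.04% of all tested genes: ZFP36, NR4A2, DUSP1, BTG2, CCN2, PLK2, CSRNP1 and TRIB1.

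Of 21 genes known as targets of AP-1 or EGR1, 16 were tested and 0 passed in edgeR. In DESeq2 2 were called higher, VIM and MT2A, beside 2.78% of all tested genes. At an unadjusted p under 0.05 in edgeR, 2 were lower and 3 higher, beside 12.1% and 10.8% of all tested genes. IL6, MMP3 and MMP9 had no reads in any library. VIM, the intermediate filament vimentin, had 69 and 48 reads in control and 371 and 147 in NRP-1 libraries (log2 fold change 2.08, edgeR adjusted p = 0.0821). Its change was 1.26 with NRP-1 replicate 2 left out and 2.60 with NRP-1 replicate 3 left out. HMOX1, heme oxygenase, had 99 and 98 against 55 and 62 (log2 fold change -0.81, edgeR adjusted p = 0.112). The change of HMOX1 was -0.74 with NRP-1 replicate 2 left out and -0.90 with NRP-1 replicate 3 left out. The median of the list was 0.07, beside -0.82 for the members.

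The genes whose course over the 4 libraries was most like that of a member were sought among 11521 non-member genes averaging 50 reads or more. The measure was the root mean square distance of centred log2 CPM. For FOS they were ERO1B, DHRS3 and MST1, at distances of 0.215, 0.225 and 0.250. For EGR1 they were SLC16A3, TMC5 and C16orf89, at distances of 0.0448, 0.0590 and 0.0632. SLC16A3, a lactate exporter, had 826 and 706 reads in control and 687 and 274 in NRP-1 libraries. MST1 has near-identical copies in the genome, which makes its count uncertain. With 4 libraries, likeness of this kind describes which library was low and no more.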

How the data were processed

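RNA of 2 control and 2 BT-474 NRP-1 libraries was compared. The authors mapped reads with HISAT/Bowtie2 and deposited, per library and gene, an expected count that is not normalized and an FPKM value, normalized for transcript length and mapped reads. The submitters' processing notes name bcl2fastq 2.16, HISAT2 2.0.1, Bowtie2 2.2.5 and RSEM, and list GRCh38 and hg19 without a role, so that no coordinates are tied to the counts. A table of the authors' own comparison (group means, log2 ratio, probability) was not used. Strand use in counting is not given in the sources used here.

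Gene IDs were matched to RefSeq symbols of GRCh38.p14 (99.4% of 18882). A gene missing from a library's file was set to 0. The test used rounded expected counts in edgeR 4.0.16 under R 4.3.3 (filterByExpr, TMM with factors from 0.986 to 1.014, glmQLFit, glmQLFTest), with Benjamini-Hochberg adjustment over 14298 genes and a threshold of 0.05. Standard errors are the absolute log2 fold change over the square root of F. Alternatives were DESeq2 1.42.0, limma 3.58.1 on log2 FPKM with 1 or 0.1 added (mean FPKM 0.5 or more), other scalings, no filter and the omission of each library. The tests were tested on simulated data. Plots used matplotlib in Python 3.11.15.

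The members and lists were chosen with earlier results of these data known. From the lists, genes with an adjusted p under 0.05 and the largest rise and fall among genes averaging 50 reads or more are named, besides the members, NRP1 and the 3 genes most like FOS and EGR1. Genes named for a count (DESeq2 calls, genes without reads, genes at least 2-fold lower in NRP-1 replicate 3, EGR2, EGR4, COL1A1, VWF, CDH5) were chosen after their values were seen.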

Additional observations from a re-analysis of the deposited data

How the results depend on the processing

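The number of members with an adjusted p under 0.05, 1 in edgeR, was 2 in DESeq2, 0 in limma with 1 or with 0.1 added to the FPKM, and 0 in edgeR without a filter on low counts, where 2 members each had an unadjusted p under 0.05. Leaving out each library in turn gave 0 to 7. The number over all genes, 156 in edgeR, was 954 in DESeq2, 7 and 3 in limma, and 0 without a filter (3297 at an unadjusted p under 0.05), and ran from 0 to 5414 with each library left out. Among other immediate early genes, 0 in edgeR became 6 in DESeq2 and ran from 0 to 24. The low ends came without a control library and the high ends without NRP-1 replicate 2. The lone library is there assumed to vary like the libraries of the other group, and the cause of these differences was not tested. With library sizes or DESeq2 size factors in edgeR, FOSL2 was the member called. The change of EGR3 ran from -1.81 to 0.89 with each library left out, and that of every other tested member stayed below 0. Over 136 comparisons of a named gene with an alternative on all 4 libraries, the call and the sign held in 123, a call was lost in 6 and gained in 7, and 0 changed sign. Of the genes compared, FOSL2 and CD68 alone were called in edgeR, so for the others holding meant staying uncalled. The 6 lost calls were those of FOSL2 and CD68 in limma, with 1 or 0.1 added, and without a filter. No paired analysis was possible because the groups share only replicate number 2. At these depths no fold change can be given for FOSL1. The comparison of both NRP-1 libraries with both controls under other scalings was chosen after seeing the data.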

Other observations

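The transcript length that the deposited files give for EGR3, which depends on which of its 3 listed transcripts the reads were assigned to, was 4342 bases in both control libraries and 3912 bases in both NRP-1 libraries. The lengths rest on 5 to 26 reads per library. For FOSB, with 2 listed transcripts, the length lay between 3762 and 3776 bases in the 4 libraries, and the groups overlapped.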
